A study of Ovis aries with 18 samples.

Results

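Allelic imbalance in expression (AI), the unequal representation of the 2 alleles of a gene among its RNA-Seq reads, was examined in genes for chromatin modifiers and remodellers in fetal sheep fat. The genes were chosen by symbol alone. They comprised the histone methyltransferases (KMT, MLL, SETD, SUV, EHMT, EZH and PRMT names), demethylases and JmjC proteins (KDM, JMJD), acetyltransferases (KAT, EP300, CREBBP, TRRAP), deacetylases and corepressor scaffolds (HDAC, SIRT, SIN3), nucleosome remodellers (CHD, SMARC, ARID, BAZ, INO80), readers and scaffolds (BRD, BRPF, PHF, CBX, ING, ASXL and MLLT names) and DNA methylation genes (DNMT, TET, UHRF). SNPs assigned to chromosome X were left out, which removed 10 SNPs in 4 genes (PHF6, KDM6A, HDAC6 and SMARCA1). The rule found 456 SNPs in 111 genes, of 24355 SNPs in 5810 genes in the table. A gene held a median of 3 SNPs and at most 19, the latter in TRRAP. The rule itself uses no measured value.

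DNA in the nucleus is wound around histones, and chromatin modifiers write, erase and read small chemical marks on histone tails and on the DNA itself, while ATP-driven remodellers slide or evict nucleosomes. Methylation of histone H3 at lysine 4 and acetylation are marks of active genes, whereas methylation at lysine 9 or 27 and deacetylation accompany silencing. In adipose tissue these enzymes are known as cofactors of the receptors and transcription factors that set the fat cell programme, and perirenal fat of the fetal lamb is a thermogenic brown depot.

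The samples were perirenal adipose tissue from 18 pure-bred Merino fetuses, 16 female and 2 male, taken at day 132 of a gestation of 150 days. All were labelled wild type, none was treated, and the study describes them as offspring of unrelated ewes and 1 common sire, so the paternal alleles came from a single animal. Where that sire was homozygous at a SNP, the base and the parent of origin cannot be told apart, and parent of origin was not tested. There was 1 condition only, and the comparison was between the 2 alleles within animals called heterozygous. Whole tissue was sequenced, so RNA of fat cells and of other cells was pooled, and fewer cells of a type and less RNA per cell cannot be told apart. Of 11 listed adipocyte markers, 6 held SNPs. The brown fat gene UCP1 had a median of 10416.5 reads per animal and SNP and ADIPOQ, the adiponectin gene, had 12419. The other adipocyte markers with SNPs were lower, with 2364 in PLIN1, 473 in CIDEA, 138.5 in DIO2 and 116.5 in PPARGC1A. The endothelial markers VWF and CDH5 had 249 and 340 reads, more than DIO2 and PPARGC1A, and the macrophage marker CSF1R had 36.5. Listed markers of muscle, red cells, and kidney or adrenal held no SNP in the table, and this says nothing of their level.

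The reference share, the reads carrying the reference base divided by all reads at the SNP, is 0.5 when both alleles are equally represented. An animal contributed 206 to 261 heterozygous SNPs of the chromatin genes, with a median depth of 37 to 67 reads per SNP. The animals' median reference shares over these SNPs lay between 0.507 and 0.535 (0.519 ± 0.00734, SD, n = 18), so no animal stood apart as a whole. Reads cover 100 bases, and 83 pairs of neighbouring SNPs in the chromatin genes lie within that length, so such neighbours share reads and are not independent measurements.

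AI was found at 156 of the 455 SNPs of the chromatin genes that could be tested (34.3%), by a Poisson likelihood ratio test that pooled the reads of all heterozygous animals at a SNP, at an unadjusted P-value below 0.05. Over all 24244 tested SNPs the same call was made at 45.0%. The reference allele was the higher at 121 SNPs of the chromatin genes, or 26.6% against 33.8% over all SNPs, and the alternate allele at 35, or 7.69% against 11.1%. With Benjamini-Hochberg adjustment over all tested SNPs, 118 SNPs (25.9%) were called, against 38.0%. One further SNP, in KMT2E, had no heterozygous animal and was not tested. The share of SNPs called was therefore below that of the table as a whole under each of these rules, and no test was made of that difference.

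The likelihood ratio test treats every read as an independent draw. A test whose unit is the animal was therefore set beside it, an exact permutation test that flips the sign of each animal's deviation from 0.5, with 2-sided P-values. It called 91 of 454 SNPs (20.04%), against 28.4% over all SNPs, and after Benjamini-Hochberg adjustment 36 (7.93%), against 12.1%. A quasi-binomial F test with limma's moderated dispersion called 107 (23.6%), against 34.6%. The same allele was the higher in every heterozygous animal, with at least 5 such animals, at 36 of 453 SNPs (7.95%), against 13.2%. The variance between animals was a median of 1.29 times that of counting error (interquartile range 0.905 to 1.79), against 1.41 over all tested SNPs.

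Most imbalances were small. The median distance of the called SNPs from 0.5 was 0.0622, against 0.0683 over all called SNPs, and 80.1% of them lay within 0.1 of 0.5, against 73.0%. The median reference share of all SNPs tested was 0.516 in the chromatin genes and 0.519 in the table, so the reference allele was slightly favoured throughout. When the share of 0.519 replaced 0.5 as the null value, 143 SNPs were called (against 41.9% of all SNPs), and the reference allele was the higher at 72 of them, or 50.3%, in place of 77.6%. Centring on the table's own median balances the directions by construction, so this split only shows that the direction of small imbalances depends on the null value.

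**Figure D1:**
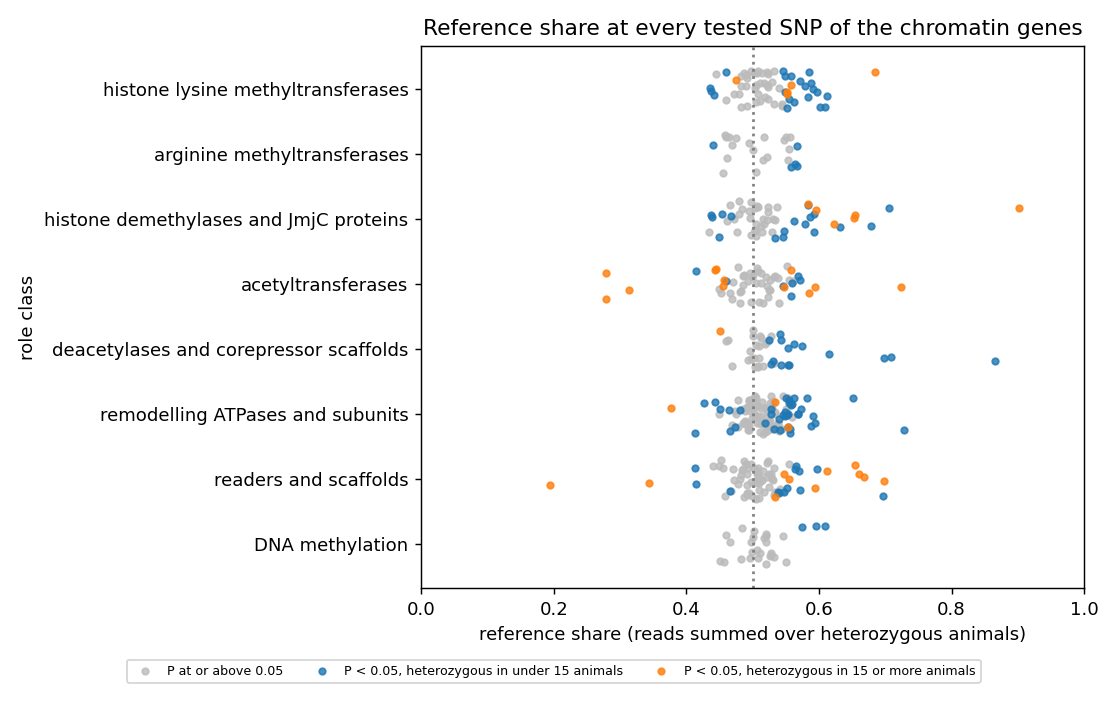
Reference share (horizontal axis, reads summed over heterozygous animals) at each of the 455 tested SNPs, by role class, where 1 point is 1 SNP and colour gives the call and the number of heterozygous animals. Most points lie between 0.4 and 0.6, and many of the points farthest from 0.5 are orange, that is, called at SNPs heterozygous in 15 or more animals.

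Calls were more frequent at greater depth. SNPs of the chromatin genes had a median of 461 summed reads, against 589 over all tested SNPs, and 152 of them fell in the lowest quartile of depth and 68 in the highest. In the lowest quartile (22 to 359 reads) 17.1% were called, against 26.6% of all SNPs. The shares were 33.6% against 38.3% in the second quartile, 43.9% against 47.6% in the third and 58.8% against 67.4% in the highest (1161 reads and more). The share called rose with depth in both sets while the median distance from 0.5 in the chromatin genes stayed between 0.0281 and 0.0305. A SNP without a call at low depth is one at which no imbalance was detectable, not one shown to be balanced.

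**Figure D2:**
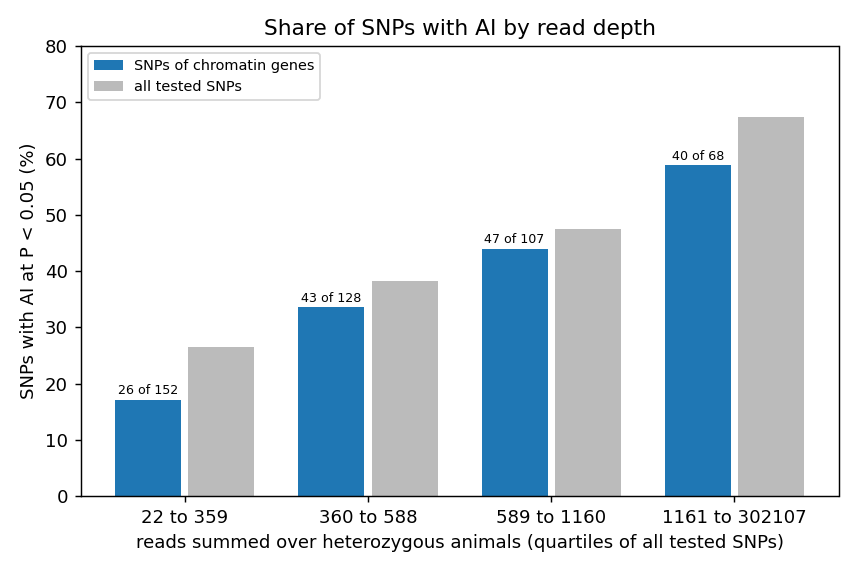
Percentage of SNPs with AI at P below 0.05 (vertical axis) in the 4 quartiles of summed reads (horizontal axis), with blue bars for SNPs of chromatin genes and grey bars for all tested SNPs. The blue bar is the lower of the pair in every quartile, from 17.1% against 26.6% to 58.8% against 67.4%, and both rise with depth.

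At the level of genes, 71 of 111 (64.0%) had at least 1 SNP with AI, against 66.0% of the 5795 genes tested. The smallest P-value of a gene passed the Bonferroni threshold of 8.63e-06 in 19 (17.1%), against 29.4%. After reads were down-sampled to 50 per animal, which lowers the weight of depth in the ranking but not that of the number of heterozygous animals, 14 genes (12.6%) were within the first 1500 ranks and also passed the Bonferroni threshold, against 21.8% of all genes. In order of rank these were JMJD8 (rank 17), HDAC1 (100), PHF1 (123), SMARCC2 (330), CREBBP (349), BRD9 (419), KDM2A (441), KMT2C (485), BAZ1A (623), KDM6B (626), BRD8 (703), TRRAP (898), SETD8 (1119) and SMARCD3 (1271). Of the 86 genes with more than 1 tested SNP, 24 had no call and 21 had 1. Several calls, all towards the reference allele, were found in 21 and, all towards the alternate allele, in 3. Calls in both directions occurred in 17 (19.8%), against 23.5% of all such genes, and every tested SNP was called in 6. For the gene counts other than calls in both directions no share over all genes is given here. Over all tested SNPs 75.3% of calls were towards the reference allele, so the split of 21 and 3 cannot be read as particular to these genes. Direction, here and below, refers to the base at each SNP and not to the copy of the gene. In CHD2, JMJD4 and PHF1, animals homozygous for the reference base at a called SNP were homozygous for the alternate base at another. In KAT2A, homozygous animals carried the alternate base at each of the opposed SNPs. Which copy was favoured was not tested.

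How the animals were genotyped separated the 14 genes into 3 sets. Genotypes had been called from the RNA-Seq reads themselves. At the best SNP of SMARCC2, BAZ1A, SETD8 and SMARCD3, animals called homozygous with at least 20 reads held on average at most 0.119% of reads from the other allele, and no homozygous animal overlapped with the heterozygous ones. At the best SNP of JMJD8, HDAC1, PHF1, KMT2C and BRD8, animals called homozygous held between 5.62% and 24.96% of reads from the allele they were called to lack (a single animal in PHF1 and in KMT2C). At the best SNP of CREBBP, BRD9, KDM2A, KDM6B and TRRAP, all 18 animals were called heterozygous and no homozygous animal was available. Over all SNPs of the chromatin genes with a homozygous animal, 13 of 427 (3.04%) had a mean of over 1% of the other allele, against 4.31% in the table, and 9 (2.11%) had over 5%, against 2.15%.

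**Figure D3:**
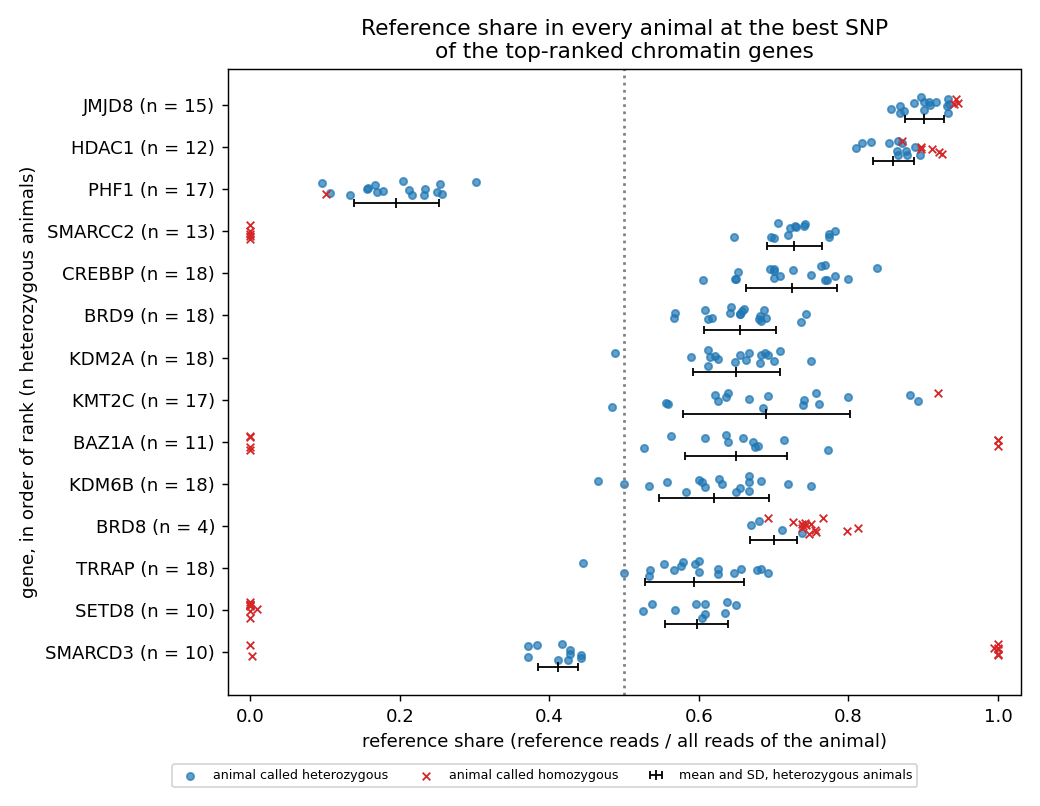
Reference share of each animal (horizontal axis) at the best SNP of the 14 top-ranked genes, in order of rank, with blue points for animals called heterozygous, red crosses for animals called homozygous with at least 20 reads, and black bars for mean and SD over heterozygous animals. In SMARCC2, BAZ1A, SETD8 and SMARCD3 the crosses lie at or next to 0 or 1, whereas in JMJD8, HDAC1, PHF1, KMT2C and BRD8 they lie beside or among the heterozygous animals.

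Among the 18 genes for histone lysine methyltransferases, 26 of 62 SNPs (41.9%) showed AI, 21 towards the reference and 5 towards the alternate allele, in 13 genes. SETD8, the enzyme that places a single methyl group on lysine 20 of histone H4, gave the clearest example. At its synonymous SNP on chromosome 17 at 51806408 (Oar v3.1, as all positions here; A51806408G, written as reference base, position and alternate base), the reference share ranged from 0.525 through a median of 0.606 to 0.65 over 10 animals. All 10 animals lay above 0.5 (595 reference and 402 alternate reads, 0.597 ± 0.0418, SD, n = 10; exact sign-flip P = 0.00195, adjusted 0.0217), with no more spread than counting error (dispersion 0.73, where 1 is counting error alone). A missense SNP 5653 bases away was also higher on the reference side, in 9 of 11 animals (0.553 ± 0.058, SD, n = 11).

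KMT2C and KMT2D, the enzymes that methylate lysine 4 of histone H3 at enhancers, had 3 of 6 and 4 of 9 SNPs called. The 3 calls of KMT2C were all towards the reference allele, and its lowest summed share was 0.483. In KMT2C, a splice-region SNP on chromosome 4 at 113992661 had shares from 0.484 to 0.893 with a median of 0.686 (0.69 ± 0.111, SD, n = 17), and 16 of 17 animals favoured the reference allele. The remaining animal was called homozygous with 2 of 25 reads from the other allele. The 2 nearby coding SNPs of KMT2C, in 7 animals each, were higher on the reference side in all 7, at 0.589 ± 0.0716 and 0.612 ± 0.0785 (SD, n = 7; exact sign-flip P = 0.0156 for each, the smallest that 7 animals can give, adjusted 0.0821). In KMT2D, a synonymous SNP on chromosome 3 at 137012638 ranged from 0.512 to 0.727 around a median of 0.572 and was reference-high in all 8 animals (0.605 ± 0.0927, SD, n = 8; exact sign-flip P = 0.00781, adjusted 0.0536). A missense SNP of the same gene at 136993026 leaned to the alternate allele in 9 of 12 animals (0.429 ± 0.0969, SD, n = 12; exact sign-flip P = 0.0259, adjusted 0.122), and its likelihood ratio call was lost without RS918 or RS947 (P up to 0.163).

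The other lysine methyltransferases had weaker or less even imbalance. EHMT2, which methylates lysine 9 of histone H3, had 1 call in 6 SNPs, at 0.615 ± 0.104 (SD, n = 7) with 5 animals above 0.5 and 2 below. SETD6, known for methylating proteins other than histones, had its only SNP at 0.599 ± 0.126 (SD, n = 7), again with 5 animals above and 2 below. SETD4 had 4 calls in 5 SNPs, 3 towards the reference and 1 towards the alternate allele. At 2 synonymous SNPs of SETD4 on chromosome 1, 30 bases apart (266371858 and 266371888), the animals were spread from 0.349 to 0.727 and from 0.317 to 0.785 around medians of 0.6 and 0.615. The same animal, RS917, was the lowest at both, and the variance was 4.45 and 6.32 times that of counting error (heterogeneity P = 0.00102 and 5.73e-06, Benjamini-Hochberg adjusted). SETD7, which methylates lysine 4 and many other proteins, was reference-high in all 5 animals at one SNP (0.581 ± 0.0289, SD, n = 5) and leaned to the alternate allele in 12 of 17 at a SNP 96 bases away (0.478 ± 0.0612, SD, n = 17), each called by the likelihood ratio test. The exact sign-flip test cannot go below P = 0.0625 with 5 animals and gave 0.158 for the 17. SETD2, the enzyme for trimethylation of lysine 36, had no call in 3 SNPs, and the one nearest to a call was at 0.544 ± 0.0677 (SD, n = 6). EZH1, a catalytic subunit of the Polycomb repressive complex and singled out here after its values were seen, had 3 of 4 SNPs called, all towards the reference allele, at 0.549 to 0.591. Leaving out RS926 or RS940 ended the call at the SNP of SETD4 at 266371888 (likelihood ratio P up to 0.338), and calls at 2 further SNPs of SETD4 and at the second SNP of SETD7 were each lost on leaving out any of 3 or more animals.

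Arginine methyltransferases had 5 calls among 23 SNPs (21.7%, against 45.0%) in 5 genes, 4 towards the reference allele, and none was top-ranked. Both SNPs of PRMT3, which methylates a ribosomal protein, were called. One of them is annotated as stop-retained (chromosome 21 at 23761515), with shares between 0.415 and 0.717 around a median of 0.543, and 6 animals were above 0.5 and 3 below (0.555 ± 0.097, SD, n = 10). The other was at 0.573 ± 0.0679 (SD, n = 8; exact sign-flip P = 0.0312, adjusted 0.124), with 6 of 8 animals above 0.5. PRMT2, a coactivator of nuclear receptors, had 2 calls in 11 SNPs in opposite directions, at 0.43 ± 0.117 (SD, n = 7) and 0.556 ± 0.106 (SD, n = 8), and neither passed the sign-flip test. The call at the stop-retained SNP was lost without RS926 or RS937 (likelihood ratio P up to 0.202), and those of PRMT2 without RS947 or RS969 or, at the other SNP, any of 5 animals. In this class the imbalances were of about the size of the spread between animals.

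Histone demethylases and JmjC proteins had 23 calls among 53 SNPs (43.4%, against 45.0%), 18 towards the reference allele, in 9 of 12 genes (against 66.0%). JMJD8, a JmjC-domain protein known from the endoplasmic reticulum and not established as a histone demethylase, ranked highest of all the chromatin genes. At a splice-acceptor SNP on chromosome 24 at 521806 (G521806T), the shares ran from 0.856 through a median of 0.901 to 0.934 (2540 reference and 275 alternate reads; 0.901 ± 0.0259, SD, n = 15). All 15 heterozygous animals were far above 0.5 (exact sign-flip P = 6.1e-05, the smallest that 15 animals can give). The remaining 3 animals were called homozygous for the reference base and had shares of 0.941 to 0.947, so the 2 genotype classes were next to each other and not at 0.5 and 1. At an intronic SNP 59 bases lower in position (521747) the shares ran from 0.341 to 0.511 around a median of 0.419, below 0.5 in 9 of 11 animals (0.43 ± 0.0521, SD, n = 11; exact sign-flip P = 0.00488, adjusted 0.0419).

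The 2 SNPs of JMJD8 in the 3′ UTR, 10 bases apart at 522478 and 522488, behaved differently between animals. At 522478 the 8 heterozygous animals had shares of 0.416 (RS905), 0.475 (RS969), 0.529 (RS926), 0.715 (RS943), 0.72 (RS920), 0.748 (RS933), 0.765 (RS940) and 0.802 (RS910). Thus 5 animals were well above 0.5 and 3 were near it or below, with no values between 0.529 and 0.715. The 95% Wilson intervals, which cover counting error only, ran from 0.424 to 0.632 for RS926 and from 0.64 to 0.78 for RS943, the neighbours across that gap. The neighbouring SNP, which shares reads, ordered the animals in the same 2 sets, 0.423 to 0.545 and 0.743 to 0.834. The variance was 12.7 and 13.1 times that of counting error, the largest dispersions among SNPs of the chromatin genes with at least 5 heterozygous animals (heterogeneity P = 1.36e-14 and 3.29e-15, Benjamini-Hochberg adjusted). Of these 8 animals, the 5 with high shares were called heterozygous at the first SNP of the gene in the table (520976), and the 3 others were homozygous there for the reference base. That match was noticed after the values were seen and is given without a test.

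KDM2A, a demethylase of lysine 36 of histone H3, had 3 of 4 SNPs called. The best, a splice-region SNP on chromosome 21 at 44457490, was heterozygous in all 18 animals with shares from 0.487 to 0.75 around a median of 0.659 (0.65 ± 0.0581, SD, n = 18), and 17 of 18 animals were above 0.5. A second SNP 2 bases away gave nearly the same share over the same animals (0.652 of summed reads), whereas a synonymous SNP at 44452648 was at 0.468 ± 0.0701 (SD, n = 13), a call lost on leaving out any of 5 animals. KDM6B, a demethylase of lysine 27, had all 3 of its SNPs called within 6 bases on chromosome 11, each heterozygous in all 18 animals, with 0.62 ± 0.0733 (SD, n = 18) at the best of them (27097131) and values from 0.465 to 0.75 around 0.629. KDM4B, which acts on lysine 9, had no such cluster at its best SNP on chromosome 5 at 16694322, where the shares of 0.519 to 0.745 around a median of 0.615 were above 0.5 in all 8 animals (0.62 ± 0.0719, SD, n = 8; exact sign-flip P = 0.00781, adjusted 0.0536). Animals homozygous there held 0.27% of the other allele. Of the 13 SNPs of KDM4B 3 were called, all towards the reference allele, and its lowest summed share was 0.434.

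KDM1A, KDM5B and JMJD4 each had calls in both directions. KDM1A, the LSD1 demethylase of lysine 4, was at 0.465 ± 0.0806 (SD, n = 7) and 0.563 ± 0.067 (SD, n = 6) at its 2 called SNPs. No animal was heterozygous at both of these KDM1A SNPs. KDM5B, another lysine 4 demethylase, was at 0.453 ± 0.106 (SD, n = 7) and 0.542 ± 0.0777 (SD, n = 12). The sign-flip test called neither gene, and the calls below 0.5 were each lost on leaving out any of 3 animals. JMJD4, a hydroxylase of a translation termination factor, was below 0.5 in 11 of 14 animals at one SNP (0.438 ± 0.0624, SD, n = 14; exact sign-flip P = 0.00293, adjusted 0.031) and spread from 0.19 to 0.771 at another (0.569 ± 0.16, SD, n = 14), with 10 animals above 0.5 and 4 below. KDM5A had no call in 4 SNPs.

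Acetyltransferases had 19 calls among 56 SNPs (33.9%, against 45.0%). Of these 10 were towards the reference and 9 towards the alternate allele, a more even split than in the other classes, although no test of that was made. Of the 19, 13 belonged to CREBBP and TRRAP. CREBBP, the CBP coactivator, had 4 called SNPs within 7 bases of chromosome 24 (3079974 to 3079980), each heterozygous in all 18 animals. At the best of them, a missense SNP at 3079976, the shares ran from 0.606 to 0.839 around a median of 0.717 (463 reference and 177 alternate reads; 0.724 ± 0.0613, SD, n = 18) and all 18 animals were above 0.5. At 3079978 the same animals were all below 0.5, at 0.278 ± 0.0645 (SD, n = 18; 178 reference and 461 alternate reads). The read numbers of the 2 SNPs are close to mirror images, and the 4 SNPs lie within the same reads, so they are 1 measurement and not 4. The other 4 SNPs of CREBBP had no call.

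TRRAP, the scaffold of several acetyltransferase complexes, had 9 calls among 19 SNPs, 5 towards the reference and 4 towards the alternate allele. Of the 9, 8 were in 2 clusters (6 SNPs within 12 bases from 37177418 and 2 adjacent SNPs at 37175826, chromosome 24) that were heterozygous in all 18 animals. Along the first cluster the direction changed, from 0.447 ± 0.0809 (SD, n = 18) at its first SNP to 0.594 ± 0.0662 (SD, n = 18) at its last (37177429), where 16 animals were above 0.5 and 1 below. Of the 11 SNPs outside the clusters 1 was called. KAT2A, the GCN5 acetyltransferase, was below 0.5 in 8 of 11 animals at a SNP annotated as upstream of a gene (0.415 ± 0.0983, SD, n = 11; exact sign-flip P = 0.0195, adjusted 0.0983) and above it in 9 of 11 at a synonymous SNP (0.565 ± 0.0747, SD, n = 11; exact sign-flip P = 0.0205, adjusted 0.103). KAT6B, a lysine acetyltransferase of the MYST family, had no call in 8 SNPs, and the nearest was at 0.45 ± 0.09 (SD, n = 11).

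Deacetylases and corepressor scaffolds had 16 calls among 38 SNPs (42.1%, against 45.0%), in 8 of 13 genes (against 66.0%). Of these calls 15 were towards the reference allele, and the class had a median of 881 summed reads per SNP. HDAC1, a catalytic subunit of the NuRD, Sin3 and CoREST complexes, ranked second among the chromatin genes. At a 3′ UTR SNP on chromosome 2 at 234328796 the shares lay between 0.811 and 0.895 around a median of 0.866 (2490 reference and 389 alternate reads; 0.86 ± 0.027, SD, n = 12), and all 12 animals were far above 0.5 (exact sign-flip P = 0.000488, adjusted 0.00831). The 6 animals called homozygous for the reference base had shares of 0.871 to 0.925 and overlapped with the heterozygous animals. SNPs lie 1 and 3 bases before it, and animals called homozygous at those held on average 27.9% and 21.5% of the other allele. At the other 3 SNPs of HDAC1 the reference share of the heterozygous animals lay between 0.475 and 0.584, and 1 of them was called, at 0.525 ± 0.021 (SD, n = 6).

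The remaining deacetylases were nearer to balance. HDAC2, the close relative of HDAC1, and HDAC3, the catalytic subunit of the NCOR complex, are singled out here after their values were seen. HDAC2 was called at 3 of 4 SNPs, all towards the reference allele, and at the SNP on chromosome 8 at 23570755 all 9 animals were above 0.5 (0.555 ± 0.0287, SD, n = 9; exact sign-flip P = 0.00391, the smallest that 9 animals can give). HDAC3 was called at all 3 of its SNPs, with summed shares of 0.541 to 0.562. HDAC5, a class II deacetylase that shuttles between nucleus and cytoplasm, had no call in 4 SNPs despite 1183 reads at the nearest one, where the share was 0.532 ± 0.0503 (SD, n = 11) and 9 of 11 animals were above 0.5. The one call towards the alternate allele in this class was in SIRT5, a mitochondrial desuccinylase and not a chromatin enzyme, at 0.444 ± 0.0827 (SD, n = 17) with 14 of 17 animals below 0.5.

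**Figure D4:**
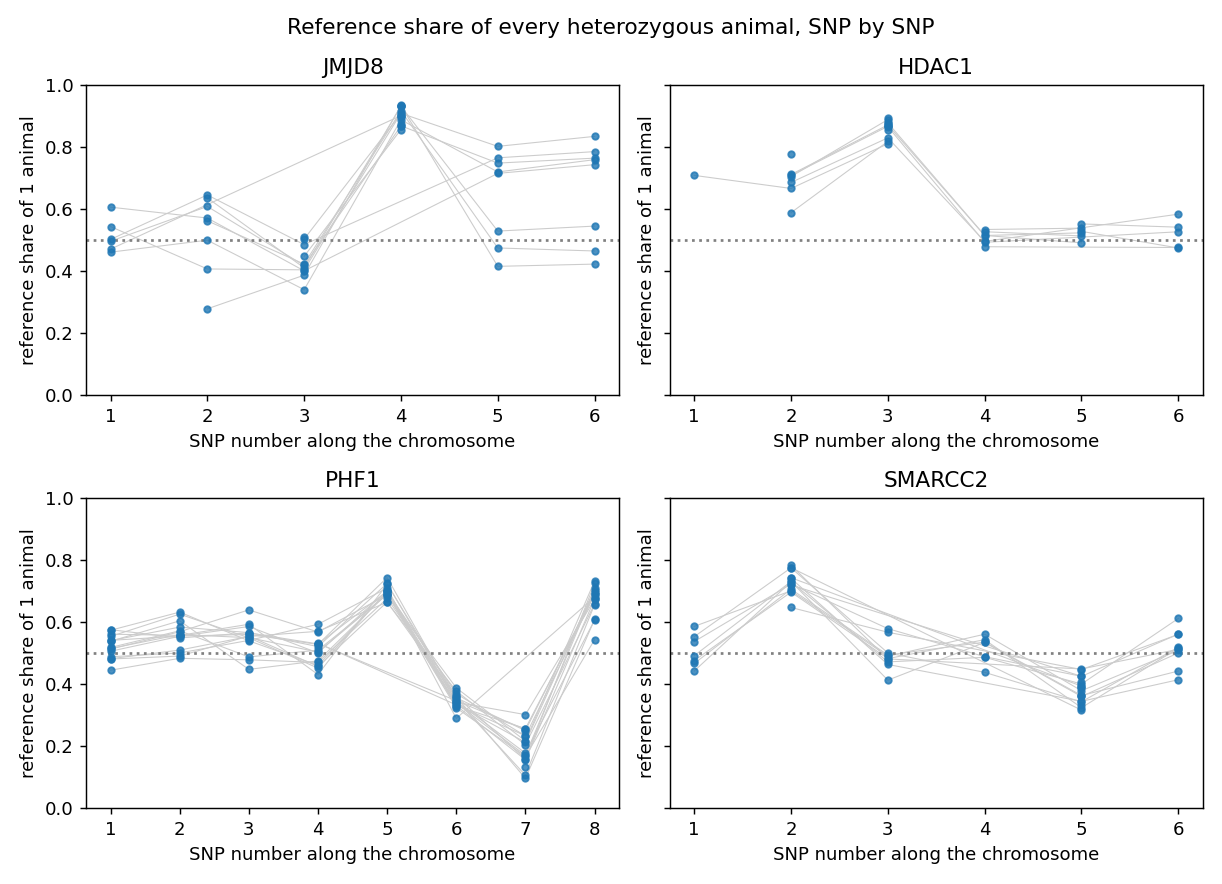
Reference share of each heterozygous animal (vertical axis) at every SNP of JMJD8, HDAC1, PHF1 and SMARCC2, numbered along the chromosome (horizontal axis), where 1 point is 1 animal and grey lines join the points of an animal. In each gene the shares lie far from 0.5 at some SNPs and nearer to it at others. At SNPs 5 and 6 of JMJD8 the animals fall into a set near 0.5 and a set above 0.7.

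Nucleosome remodellers were the largest class, with 40 calls among 112 SNPs (35.7%, against 45.0%) in 20 of 28 genes (against 66.0%). Of these calls 31 were towards the reference and 9 towards the alternate allele, and 92.5% were within 0.1 of 0.5, against 73.0% over all called SNPs. SMARCC2, the BAF170 core subunit of SWI/SNF complexes, had 2 strongly imbalanced SNPs among 6. At a splice-region SNP on chromosome 3 at 163089865 (G163089865A) the shares ran from 0.646 to 0.782 around a median of 0.729 (1198 reference and 448 alternate reads; 0.728 ± 0.0372, SD, n = 13). All 13 heterozygous animals were above 0.5 with no more spread than counting error (dispersion 0.811; exact sign-flip P = 0.000244, adjusted 0.00488). The 5 homozygous animals had no read of the other allele among 328, which allows a share of up to 0.915%. At a SNP annotated as downstream (163096499) all 18 animals were heterozygous and all were below 0.5, at 0.316 to 0.449 (0.38 ± 0.0406, SD, n = 18). The other 4 SNPs were not called.

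BAZ1A, the ACF1 partner of the ISWI remodeller, had 4 of 5 SNPs called, all towards the reference allele. At the best, a synonymous SNP on chromosome 18 at 44021390, the shares ran from 0.527 to 0.773 around a median of 0.659 and all 11 animals were above 0.5 (0.65 ± 0.0678, SD, n = 11; exact sign-flip P = 0.000977, adjusted 0.0137). The 7 homozygous animals had no read of the other allele among 325, which allows up to 0.923%. The 4 other SNPs of BAZ1A, 2 of them in the 3′ UTR, had summed shares of 0.544 to 0.582, so the lean to the reference allele was seen along the gene but was smaller elsewhere.

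SMARCD3, the BAF60C subunit, was the only top-ranked gene with a clear genotype in which the alternate allele was the higher. At a SNP annotated as downstream on chromosome 4 at 113207681 the shares ran from 0.372 to 0.442 around a median of 0.421 (1423 reference and 2026 alternate reads; 0.412 ± 0.0268, SD, n = 10), and all 10 animals were below 0.5 (exact sign-flip P = 0.00195, adjusted 0.0217). A synonymous SNP 595 bases away was at 0.478 ± 0.0274 (SD, n = 10), below 0.5 in 8 of 10 animals. CHD4, the ATPase of the NuRD complex, was above 0.5 in all 11 animals at one SNP (chromosome 3 at 207793554; 0.557 ± 0.0361, SD, n = 11; exact sign-flip P = 0.000977, adjusted 0.0137) and below it in 6 of 7 at another (0.464 ± 0.0422, SD, n = 7). CHD2, a remodeller of the same family, had 5 calls in 15 SNPs, 4 towards the reference allele. At 2 of its SNPs 39 bases apart the means were 0.473 ± 0.0876 and 0.55 ± 0.0673 (SD, n = 11 each). The same 7 animals were homozygous at both, each for the reference base at one and the alternate base at the other. The 2 means therefore need not favour different copies of the gene. The calls of CHD4 and CHD2 below 0.5 were lost on leaving out any of 4 and 6 animals. SMARCA4 and SMARCA2, the alternative ATPases of SWI/SNF, had 4 of 11 and 3 of 13 SNPs called, all towards the reference allele.

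Readers and scaffolds had 24 calls among 83 SNPs (28.9%, against 45.0%), of which 19 were towards the reference allele, in 11 of 21 genes (against 66.0%). PHF1, a Polycomb-associated reader of lysine 36 methylation, carried 6 of them in 8 SNPs. Nearly the same 15 to 17 animals were heterozygous along the gene on chromosome 20. At the first 4 SNPs the animals lay between 0.43 and 0.639. The shares were 0.663 to 0.743 at the synonymous SNP at 7692998 (7091 reference and 3058 alternate reads; 0.697 ± 0.0216, SD, n = 15), and 0.289 to 0.388 at a synonymous SNP 224 bases on (4390 and 8398 reads; 0.346 ± 0.0242, SD, n = 15). At a splice-acceptor SNP a further 191 bases on (7693413) they were 0.0962 to 0.301 (172 and 711 reads; 0.196 ± 0.0566, SD, n = 17), and at an intronic SNP 0.669 ± 0.0502 (SD, n = 15). At each of these last 4 SNPs every heterozygous animal was on the same side of 0.5 (exact sign-flip P = 6.1e-05 for 15 animals and 1.53e-05 for 17, the smallest possible in each case). RS926, RS929 and RS969 were homozygous for the reference base at 7692998 and at the intronic SNP (7694137), and for the alternate base at 7693222. The changes of side between those SNPs therefore need not favour different copies of the gene.

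BRD9, a bromodomain subunit of a SWI/SNF variant, had all 5 SNPs called towards the reference allele. Of these, 4 were splice-region SNPs heterozygous in all 18 animals, 3 within 5 bases of chromosome 16, and at the best (70872306) every animal was above 0.5, from 0.567 to 0.743 around 0.656 (0.655 ± 0.0485, SD, n = 18). The fifth, a synonymous SNP, was above 0.5 in all 5 animals at 0.566 ± 0.0202 (SD, n = 5). BRD8, a bromodomain subunit of the NuA4 acetyltransferase complex, was measured at a single missense SNP on chromosome 5 at 46983235. There 4 animals were called heterozygous, with shares of 0.669 to 0.738 around 0.696, and the 14 animals called homozygous for the reference base had shares of 0.692 to 0.812 around 0.745. The 2 genotype classes overlapped, and 24.96% of the reads of the homozygous animals carried the alternate base on average. With 4 heterozygous animals the exact sign-flip test cannot give a P-value below 0.125.

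ASXL1, a Polycomb-associated scaffold, had 2 calls in 8 SNPs in opposite directions (0.457 ± 0.0789, SD, n = 12, and 0.538 ± 0.0902, SD, n = 16), neither passed the sign-flip test, and each was lost on leaving out any of 7 or 5 animals. MLLT4, which matches the naming rule but encodes the cell junction protein afadin, had no call in 5 SNPs. One of them, an intronic SNP on chromosome 8 at 88981069, had equal summed reads (325 reference and 322 alternate) yet shares from 0.34 to 0.589 over 5 animals, with a variance 5.77 times that of counting error (heterogeneity P = 0.00192, Benjamini-Hochberg adjusted).

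DNA methylation genes had 3 calls among 28 SNPs (10.7%, against 45.0% over all SNPs), the lowest share of the 8 classes. Their median of 327.5 summed reads per SNP lay in the lowest quartile of depth, where 26.6% of all SNPs were called. DNMT1, the maintenance methyltransferase, had 2 of 11 SNPs called, both towards the reference allele. At the synonymous SNP on chromosome 5 at 12371002 the shares ran from 0.5 to 0.702 around a median of 0.639, with 6 animals above 0.5 and 1 at it (0.613 ± 0.0764, SD, n = 7; exact sign-flip P = 0.0312, adjusted 0.124). TET2, which oxidises methylated cytosine, had 1 call in 14 SNPs, a missense SNP on chromosome 6 at 20056787. The share there was above 0.5 in all 6 animals (0.575 ± 0.0311, SD, n = 6; exact sign-flip P = 0.0312, the smallest that 6 animals can give, adjusted 0.124). DNMT3B and UHRF2 had 1 SNP each and no call, as did UHRF1BP1L, which matches the naming rule only and is not known as a DNA methylation gene.

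Called SNPs were frequent where a SNP was heterozygous in most animals or lay at an exon boundary. Of the SNPs of chromatin genes, 55 (12.1%) had at least 15 heterozygous animals, compared with 9.94% in the whole table, and 38 of them (69.1%) showed AI, against 72.2% of all such SNPs. In fewer animals, 118 of 400 (29.5%) did, against 42.0%. A SNP of all 18 animals, in which no homozygous animal can be compared, was found 28 times (6.15%, against 5.44%) and was called 25 times (89.3%, against 83.0%). The 22 SNPs heterozygous in 15 or more animals with another SNP within 5 bases were all called and came from 6 genes, BRD9, CREBBP, KDM2A, KDM6B, KMT2D and TRRAP. SNPs that close share reads and are not independent. The share called over all SNPs of that kind is not given here, so the count cannot be read as particular to these genes. Another SNP within 5 bases was present at 39 SNPs (8.55%, against 10.4%). Of 24 SNPs with a splice consequence, 21 were called (87.5%, against 66.9% of all such SNPs) and 18 were heterozygous in 15 or more animals (75%, against 40.4%). Synonymous SNPs were called at 29.2% (against 41.4%), missense SNPs at 33.3% (against 47.6%) and 3′ UTR SNPs at 48.0% (against 50.1%). The part of genotype calling and read mapping in these values was not tested.

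Differences between animals in the size of the imbalance were called at 39 of 454 SNPs (8.59%), against 15.4% of all SNPs, by a heterogeneity chi-square with Benjamini-Hochberg adjustment. They lay in 31 genes, and at 37 of the 39 SNPs some animals were above 0.5 and others below. The matching share over all SNPs that differed between animals is not given here, so this count cannot be read as particular to these genes. CHD2 had 3 such SNPs, and JMJD8, SETD4, PRMT2, KMT2E, BRD2 and TRRAP had 2 each.

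A list of 110 partner genes (subunits of the same complexes, histone chaperones and other readers) was described in the same way, and 55 of its genes held 189 SNPs. AI was called at 79 of 188 tested SNPs (42.0%, against 45.0% of all SNPs), 68 towards the reference allele, and 14 of the 55 genes (25.5%) were top-ranked, against 21.8%. The highest ranked was ZMYND11, a reader of lysine 36 methylation, at 0.862 ± 0.0486 (SD, n = 10) with all 10 animals above 0.5. RBBP4, the histone-binding partner of HDAC1 in its complexes, was at 0.0992 ± 0.0211 (SD, n = 8) with all 8 animals below 0.5, but another SNP lay 1 base away and the animals called homozygous held 5.86% of the other allele on average. NCOR1, the corepressor that recruits HDAC3, had 7 of 10 SNPs called, all towards the reference allele, with 0.76 ± 0.042 (SD, n = 18) at the best, where no homozygous animal was available. LBR, the lamin B receptor, was at 0.723 ± 0.142 (SD, n = 8), with 4.38% of the other allele in homozygous animals, and BPTF, a remodeller subunit, at 0.732 ± 0.0896 (SD, n = 8).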

How the data were processed

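RNA-Seq of perirenal adipose tissue from 18 fetuses was mapped by the authors to Oar v3.1 with STAR, with uniquely mapped paired 100-base reads and up to 10 mismatches. Genotypes were called with GATK (version 3.4-46 in the submitters' processing notes). The deposited table gives, per SNP and animal, whole-number counts of reads for the reference and alternate base and a genotype, for SNPs in annotated genes where 5 or more animals each had a minimum of 10 reads per allele. All 456 SNPs of the chromatin genes met that read minimum over all animals and 453 over heterozygous animals. Total reads at all SNPs of the table ranged from 2970824 to 5334585 per animal. The table also holds the authors' own test statistics, P-values and shares, which were not used. The lane of each library was not given in the sources used here, so no batch could be fitted.

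Counts were used as deposited, without normalization, since both alleles come from the same library. For each SNP, reads of animals called 0/1 were summed and tested with a Poisson likelihood ratio test (chi-square, 1 degree of freedom), called at an unadjusted P-value below 0.05, following the study. A gene took its smallest P-value (Bonferroni threshold 0.05 over 5795 genes). Ranks are geometric means over 20 rounds of down-sampling to 50 reads. Added tests were an exact sign-flip permutation test over animals (2-sided; at least 6 animals are needed for P below 0.05), a quasi-binomial F test with variances moderated by limma 3.58.1, and a Pearson heterogeneity test. Benjamini-Hochberg adjustment was over all tested SNPs. Python 3.11.15, scipy 1.17.1 and R 4.3.3 were used, and the scripts were tested on simulated data. Likelihood ratio P-values and intervals cover counting error only, and sign-flip P-values the spread between these 18 half-siblings. PCR duplicates were not marked by molecular identifiers.

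The genes, their role classes and the lists were chosen with earlier results of these data known. SNPs were named by rule: the best SNP of the 20 highest ranked genes, the genes with the smallest P-value and the most SNPs in each class, the 5 SNPs with the largest dispersion, stop and splice-site SNPs, genes with calls in both directions, and the 5 uncalled genes with the most reads. This gave 61 SNPs in 36 genes. Other genes named are said to be chosen after their values were seen or are named only with counts.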

Additional observations from a re-analysis of the deposited data

How the results depend on the processing

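Counts were recomputed under other settings, those with another test or with combined filters chosen after the data were seen where stated. SNPs with AI (156) fell to 93 and 69 with at least 20 and 30 reads of each allele in 5 animals, of fewer SNPs tested, while the share called was 38.8% and 46.3%, against 49.0% and 53.8% of all SNPs. They numbered 91 by the sign-flip test (added later). Genes with AI (71) numbered 38 with 30 reads, of the 51 chromatin genes still tested. Top-ranked genes (14) numbered 23 with Benjamini-Hochberg in place of Bonferroni adjustment, a setting whose share over all genes is not given here. With 20 reads they numbered 9 of 77 genes tested, against 25.8% of all genes. Without SNPs heterozygous in 15 or more animals they numbered 8 of 108, against 19.1%. They numbered 6 of 108 (against 18.2%) when SNPs with another SNP within 5 bases were also left out (added later). They numbered 6 of 107 (against 17.1%) when, in addition, SNPs were left out where homozygous animals were lacking or held over 1% of the other allele (added later). Those last 6 were BAZ1A, JMJD8, SETD8, SMARCA2, SMARCC2 and SMARCD3. JMJD8 remained through other SNPs of the gene, since its splice-acceptor SNP at 521806 was among those left out. SNPs that differed between animals (39) numbered 95 without adjustment and 25 with 30 reads. Partner SNPs with AI (79) numbered 48 and 38 with 20 and 30 reads, and 50 and 45 under the 2 combined filters. Many of these settings test fewer SNPs (240 SNPs of the chromatin genes with 20 reads and 149 with 30).

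Leaving out each animal in turn gave 139 to 165 SNPs with AI, 68 to 75 genes, 12 to 18 top-ranked genes, 33 to 42 SNPs that differed between animals, 73 to 80 partner SNPs and median reference shares of 0.514 to 0.517. Of the 55 named SNPs that were called, 13 lost the call with Benjamini-Hochberg adjustment, 22 by the sign-flip test, 16 by the quasi-binomial test, 6 with the null share at the median of all SNPs (which added 2), and 16 when 1 animal was left out. The last were SNPs of ASXL1, CHD2, CHD4, KDM1A, KDM2A, KDM5B, KMT2D, PRMT2, PRMT3, SETD4 and SETD7, and the splice-acceptor SNP of KMT2D was lost without RS940 alone (likelihood ratio P = 0.113). None changed direction under these settings. No paired analysis was possible because there was 1 group, and the 2 alleles were already compared within animals.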

Other observations

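SMARCA2, the other SWI/SNF ATPase beside SMARCA4, was ranked 1686 with all SNPs and was among the top-ranked genes under several of the filters above. Its SNP with the smallest P-value (chromosome 2 at 69824128) had shares from 0.49 to 0.655 around a median of 0.568, and 8 of 9 animals were above 0.5 (0.575 ± 0.0559, SD, n = 9). At the other 12 SNPs of the gene the summed shares lay between 0.474 and 0.549, and 2 were called, both towards the reference allele. CHD1L, a remodeller recruited to damaged DNA, leaned to the reference allele along its 6 SNPs, of which 4 were called. These genes were singled out after their values were seen.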
